A study of Mus musculus with 10 samples.

Results

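The genes described here encode 10 enzymes that build glycerolipids. They are the acyltransferases Gpam, Gpat4, Agpat2, Agpat3, Dgat1 and Dgat2, the lipins Lpin1, Lpin2 and Lpin3, and the choline branch enzyme Pcyt1a. They were chosen by name, as 10 of the 56748 genes in a table of RNA-seq read counts from mouse liver. The 10 libraries fell into 5 from mice labelled ACSS2-HKO, in which Acss2 is knocked out in liver cells (HKO), and 5 from mice labelled ACSS2-flox (flox). Acss2 encodes the enzyme that makes acetyl-CoA from acetate in the cytosol and nucleus. Both groups had been fed a diet high in fat and fructose for 4 months, in a study of ACSS2 in metabolic dysfunction-associated steatohepatitis. What drives the deletion, the age and sex of the mice and the time of day at which livers were taken are not given in the labels. The labels do not say that each library came from a separate animal, so the p-values measure the spread between these libraries.

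Triglyceride is assembled in the endoplasmic reticulum by adding fatty acyl chains to glycerol-3-phosphate step by step. A GPAT enzyme adds the first chain and an AGPAT enzyme the second, which gives phosphatidic acid. A lipin then removes the phosphate to give diacylglycerol, and a DGAT enzyme adds the last chain. Diacylglycerol is also the substrate of phosphatidylcholine synthesis, in which Pcyt1a catalyses the rate-limiting step. In liver the pathway stores fatty acids in lipid droplets and supplies the triglyceride of very-low-density lipoprotein.

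Total counts ran from 15413648 to 19275358 in HKO and from 16933436 to 17196774 in flox. Mitochondrial transcripts took 6.13% to 8.60% of the counts in HKO and 5.15% to 8.22% in flox. The 10 hepatocyte markers summed to 111730 to 148770 CPM (counts scaled to library size, with the TMM factors of edgeR) in HKO and to 89832 to 142170 CPM in flox. The Y-linked Ddx3y was read in every library, at 90.8 to 122.0 CPM in HKO and 71.4 to 121.8 CPM in flox, while Xist stayed at or below 0.601 CPM. Reads of a Y-linked gene mean that every library held RNA from male mice. Acss2 itself averaged 49.4 ± 7.47 CPM in HKO and 80.8 ± 29.5 CPM in flox (mean ± SD, n = 5 each). Its difference did not pass the test over all genes (edgeR quasi-likelihood test, Benjamini-Hochberg adjusted p = 0.0858), but DESeq2 called it (adjusted p = 0.0416). Acss2 was lower in HKO under all 17 alternatives, with a log2 fold change of -0.81 to -0.47, and passed in 4 of them. Of the other cell types, all 12 macrophage markers fell, among them Mpeg1, C1qb and Csf1r, with sums of 111.2 to 223.9 CPM in HKO and 285.1 to 679.7 CPM in flox. All 8 endothelial markers had a negative log2 fold change (median -0.44), with 2 at an edgeR unadjusted p under 0.05, and 1, Cdh5, passed. The Cdh5 call was lost in 5 of the 17 alternatives, with an edgeR adjusted p of up to 0.0722. Of 9 stellate, 4 adipocyte and 5 cholangiocyte markers tested, 0 passed in edgeR or in DESeq2. An edgeR unadjusted p under 0.05 was reached by 4, 3 and 0 of them, and by 16.9% of all tested genes. Their median log2 fold changes were -0.26, -1.12 and -0.46. Of 3 neutrophil markers tested in edgeR 0 passed, with 2 at an edgeR unadjusted p under 0.05 and a median log2 fold change of -1.18. DESeq2 called 1 of the 5 neutrophil markers in the whole list. Of 7 tested genes of a list of sex-biased liver genes, 3 rose and 2 fell, and all 7 had an edgeR unadjusted p under 0.05. DESeq2 called 8 of the 11 genes in the whole list. Mup20, a major urinary protein, averaged 2393 ± 699.9 CPM in HKO and 686.9 ± 392.5 CPM in flox. The cytochromes P450 Cyp2b9 and Cyp2a4 averaged 1.86 and 0.188 CPM in HKO and 330.0 and 25.8 CPM in flox. These 3 belong to families of similar genes between which reads can be split. In whole liver, fewer cells of a type and less RNA per cell cannot be told apart. The part of these markers in the results below was not tested.

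None of the 10 assembly genes passed the test between HKO and flox. The largest differences were a higher Lpin2 and lower Lpin3 and Dgat2 in HKO, with HKO levels of 150.0%, 74.6% and 77.3% of flox. All 10 were abundant enough to be tested, and 0 had an edgeR adjusted p under 0.05, against 3.99% of the 14068 genes tested (0.917% higher and 3.07% lower in HKO). At an unadjusted p under 0.05 there were 2, Lpin2 and Dgat2, where 16.9% of all tested genes stood. DESeq2 called 1, Lpin2, against 6.14% of the genes to which it gave an adjusted p. In 0 of the 10 did all HKO libraries lie on one side of all flox libraries, against 5.37% of all tested genes. Their median log2 fold change was -0.05, where all tested genes had 0.01. For 9 of the 10, the 95% interval of the change, taken from the edgeR fit, lay within 2-fold in either direction. The exception was Lpin1.

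**Figure D1:**
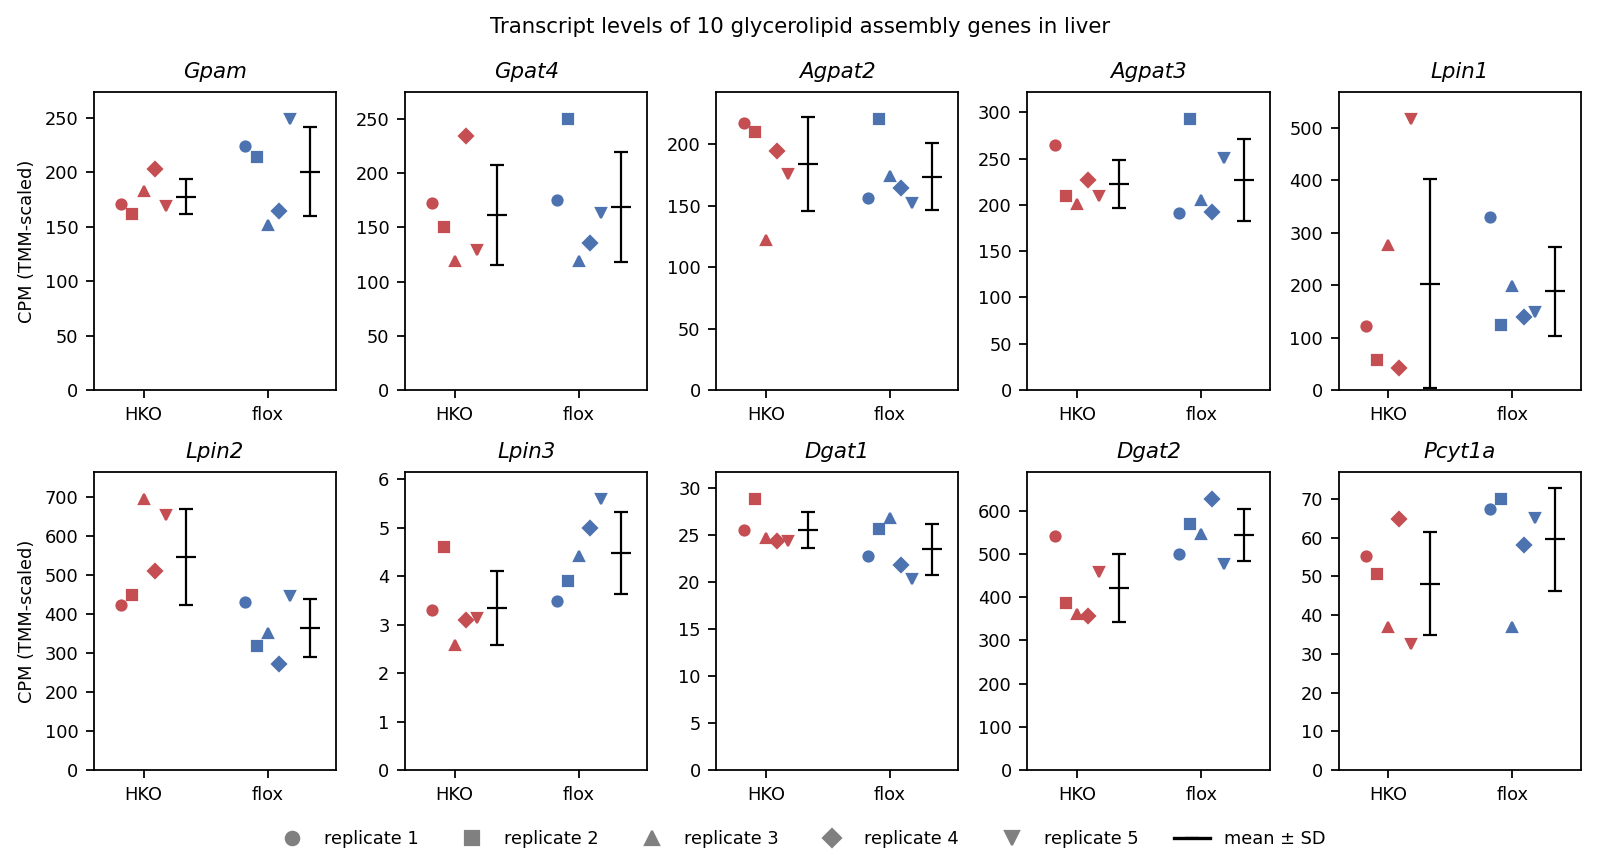
Level of each of the 10 genes in CPM (vertical axes, from 0), with HKO on the left and flox on the right. Symbols are replicates 1 to 5 and black bars are the mean ± SD. The groups overlap in every panel, and Lpin1 has the widest spread, from 42.7 to 517.3 CPM.

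Gpam (ENSMUSG00000024978) encodes the mitochondrial glycerol-3-phosphate acyltransferase, the first enzyme of the pathway and a known target of SREBP1c, the transcription factor that drives lipid synthesis. It stood at 171.2, 162.0, 182.3, 203.3 and 168.9 CPM in HKO replicates 1 to 5, and at 224.0, 213.6, 151.8, 164.3 and 248.9 CPM in flox replicates 1 to 5. The HKO libraries lay close together inside the flox range. The HKO level was 88.5% of flox, with a 95% interval of 70.3% to 111.5% (edgeR adjusted p = 0.629). Gpat4 (ENSMUSG00000031545), the GPAT of the endoplasmic reticulum, had 172.5, 150.6, 118.6, 234.2 and 128.8 CPM in HKO, against 175.4, 249.9, 119.0, 135.2 and 162.8 CPM in flox. Both groups covered nearly the same range, and the HKO level was 95.5% of flox (68.6% to 133.2%, edgeR adjusted p = 0.927).

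For the enzymes of the second step the groups also overlapped widely. Agpat2 (ENSMUSG00000026922), whose loss causes lipodystrophy, had 217.5, 209.6, 122.2, 194.6 and 176.0 CPM in HKO, against 156.3, 220.6, 174.5, 164.6 and 152.3 CPM in flox. HKO replicate 3 was the lowest of all 10 libraries, and the HKO level was 105.9% of flox (82.2% to 136.5%, edgeR adjusted p = 0.868). Agpat3 (ENSMUSG00000001211), another acyltransferase of lysophosphatidic acid, had 264.9, 209.5, 201.3, 227.4 and 210.0 CPM in HKO, against 191.3, 292.9, 205.6, 192.4 and 250.4 CPM in flox. The HKO level was 98.3% of flox (78.3% to 123.4%, edgeR adjusted p = 0.961). Egfl7, on the opposite strand at the same locus, had 8.32% of the Agpat2 count, and use of strand in the counting is not known.

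The 3 lipins, which share the phosphatidic acid phosphatase step, did not vary alike. Lpin2 (ENSMUSG00000024052), the most abundant lipin in these libraries, had 421.2, 447.4, 694.1, 508.7 and 652.5 CPM in HKO, against 429.7, 318.6, 351.7, 270.7 and 445.3 CPM in flox. HKO replicates 2 to 5 lay above every flox library, and HKO replicate 1 lay below flox replicates 1 and 5. The mean was 544.8 ± 122.4 CPM in HKO and 363.2 ± 73.9 CPM in flox (SD, n = 5 each), a log2 fold change of 0.58 ± 0.19 (SE). The HKO level was 150.0% of flox (113.2% to 198.7%), with an edgeR adjusted p of 0.111 and a DESeq2 adjusted p of 0.0389. Lpin2 was higher in HKO under every alternative run, with a log2 fold change of 0.47 to 0.67 and an adjusted p of 0.0389 to 0.228.

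Lpin1 (ENSMUSG00000020593), the lipin that fasting and glucocorticoids induce in liver and that also acts as a coactivator of PPAR-alpha, varied more than any other of the 10. It had 121.4, 57.2, 277.1, 42.7 and 517.3 CPM in HKO, against 331.0, 123.6, 197.7, 139.9 and 149.2 CPM in flox. HKO held both the highest and the lowest libraries, 12.1-fold apart. The SD of log2 CPM within groups was 1.14, larger than that of 98.9% of the tested genes, whose median was 0.33. The HKO level was 107.9% of flox with an interval of 47.3% to 246.1% (edgeR adjusted p = 0.953). The log2 fold change of 0.11 was negative without HKO replicate 3, HKO replicate 5 or flox replicate 2, and ran from -0.59 (without HKO replicate 5) to 0.41 (without flox replicate 1).

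Lpin3 (ENSMUSG00000027412), the remaining lipin, was rare. It had 3.31, 4.60, 2.58, 3.08 and 3.14 CPM in HKO, against 3.49, 3.90, 4.42, 4.98 and 5.59 CPM in flox. HKO replicates 1, 3, 4 and 5 lay below every flox library, and HKO replicate 2 lay above 3 of them. The level rests on 268 counts in HKO and 400 in flox, and the HKO level was 74.6% of flox (53.6% to 103.9%, edgeR adjusted p = 0.365). Gm16751, which overlaps it on the opposite strand, had 5.09% of its count.

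The last step is shared by Dgat1 and Dgat2, which are unrelated in sequence. Dgat2 (ENSMUSG00000030747), which in liver is known to use fatty acids made in the cell, had 542.0, 385.7, 361.3, 356.0 and 457.0 CPM in HKO, against 499.5, 570.1, 545.3, 627.3 and 475.5 CPM in flox. HKO replicates 2 to 5 lay below every flox library, and HKO replicate 1 lay inside the flox range. The mean was 420.4 ± 79.0 CPM in HKO and 543.6 ± 59.8 CPM in flox (SD, n = 5 each), a log2 fold change of -0.37 ± 0.16 (SE). The HKO level was 77.3% of flox (61.4% to 97.4%), and the difference did not pass (edgeR adjusted p = 0.234, and 0.0934 to 0.413 over the alternatives). Dgat1 (ENSMUSG00000022555), known for re-esterifying fatty acids taken up from outside the cell, had 25.5, 28.9, 24.7, 24.4 and 24.4 CPM in HKO, against 22.8, 25.7, 26.8, 21.8 and 20.3 CPM in flox. It was the steadiest of the 10, with a within-group SD of 0.14 on the log2 scale, and the HKO level was 108.9% of flox (91.0% to 130.4%, edgeR adjusted p = 0.673).

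Pcyt1a (ENSMUSG00000005615), the enzyme that activates phosphocholine with CTP, had 55.4, 50.6, 36.9, 64.8 and 32.5 CPM in HKO, against 67.4, 70.0, 37.0, 58.0 and 65.1 CPM in flox. HKO replicates 3 and 5 and flox replicate 3 were low, and the rest of both groups overlapped. The HKO level was 80.8% of flox (58.9% to 110.7%, edgeR adjusted p = 0.510).

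Per kilobase of gene length, which allows levels of different genes to be compared, Dgat2 was the most abundant of the 10. It had 136.4 CPM per kilobase in HKO and 176.3 in flox. Agpat2 came second, at 86.4 in HKO and 81.5 in flox, and Lpin2 next over all 10 libraries, at 44.5 in HKO and 29.7 in flox. Dgat2 lay above Agpat2, and Agpat2 above Lpin2, in all 10 libraries. Lpin2, Agpat3, Gpam, Gpat4, Lpin1, Dgat1 and Pcyt1a followed in that order of their means over all 10 libraries, with ranges that overlapped between neighbours. The order differed by group, since in flox Gpam (30.1) stood above Lpin2 (29.7), and Pcyt1a (8.03) above Dgat1 (7.68). Lpin3 was last in every library, at 0.905 in HKO and 1.21 in flox. The length is the one in the deposited table, whose definition is not stated.

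**Figure D2:**
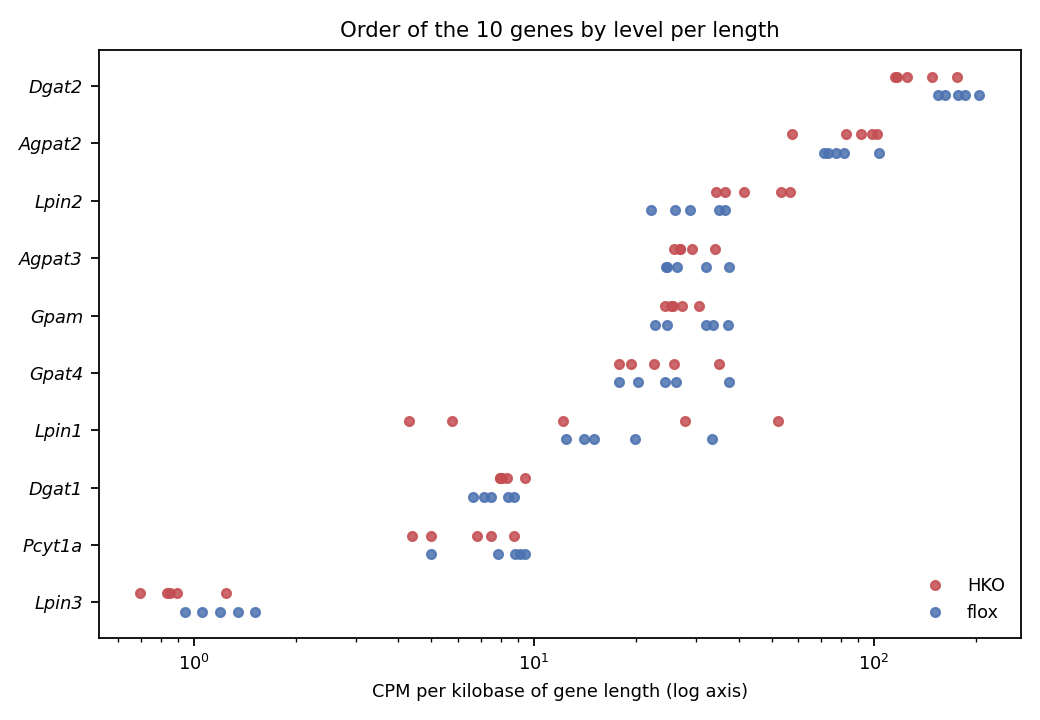
Level of the 10 genes per kilobase of gene length (horizontal log axis), 1 point per library, HKO above flox within each row. Dgat2 and Agpat2 lie apart at the top, Lpin3 at the bottom, and the 7 genes between them overlap with their neighbours.

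By this measure Dgat2 made up 94.1% ± 1.04 of the DGAT transcripts in HKO and 95.8% ± 0.503 in flox (SD, n = 5 each). Lpin2 made up 72.4% ± 15.3 of the lipin transcripts in HKO and 60.4% ± 7.16 in flox. The share of Lpin1 ran from 9.21% to 49.0% in HKO and from 28.4% to 48.0% in flox. Gpam and Gpat4 were close to even, with Gpam at 53.1% ± 5.61 in HKO and 54.8% ± 5.27 in flox.

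Enzymes of 1 step were then compared within each library as a log2 ratio of counts, which needs no scaling for depth. Of 6 ratios tested by an exact two-sided permutation test over all assignments of the libraries, 2 passed after adjustment over the 6. Both passed narrowly, and both groups still overlapped. The log2 ratio of Dgat2 to Dgat1 was 4.41, 3.74, 3.87, 3.87 and 4.23 in HKO, against 4.45, 4.47, 4.34, 4.85 and 4.55 in flox. HKO replicate 1 lay above the lowest flox library, and the mean difference, HKO minus flox, was -0.51 (exact permutation p = 0.0159, adjusted p = 0.0476). The log2 ratio of Lpin2 to Lpin3 averaged 7.33 ± 0.57 in HKO and 6.33 ± 0.42 in flox, a difference of 1.004 (SD, n = 5 each, exact permutation p = 0.0159, adjusted p = 0.0476). The ratio of Lpin2 to Lpin3 lost its adjusted call in 8 of the 10 comparisons that left out 1 library, and that of Dgat2 to Dgat1 in 7, with adjusted p up to 0.119 for both. Their differences stayed between 0.82 and 1.19 and between -0.61 and -0.43. In these comparisons the lowest adjusted p (exact permutation) was 0.0476 for both, just under the threshold. With fewer assignments the exact p moves in coarse steps. A lost call therefore need not mean that the result rests on the library left out.

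The other ratios did not pass. Lpin1 to Lpin2 averaged -1.998 ± 1.29 in HKO and -1.02 ± 0.47 in flox (SD, n = 5 each, exact permutation p = 0.183, adjusted p = 0.365). It passed without HKO replicate 5, with a difference of -1.39 (exact permutation, adjusted p = 0.0476). The adjusted p was 0.984 for Lpin1 to Lpin3, 0.810 for Gpam to Gpat4 and 0.810 for Agpat2 to Agpat3 (exact permutation tests). The differences for the first and second steps were small, -0.09 for Gpam to Gpat4 and 0.08 for Agpat2 to Agpat3.

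**Figure D3:**
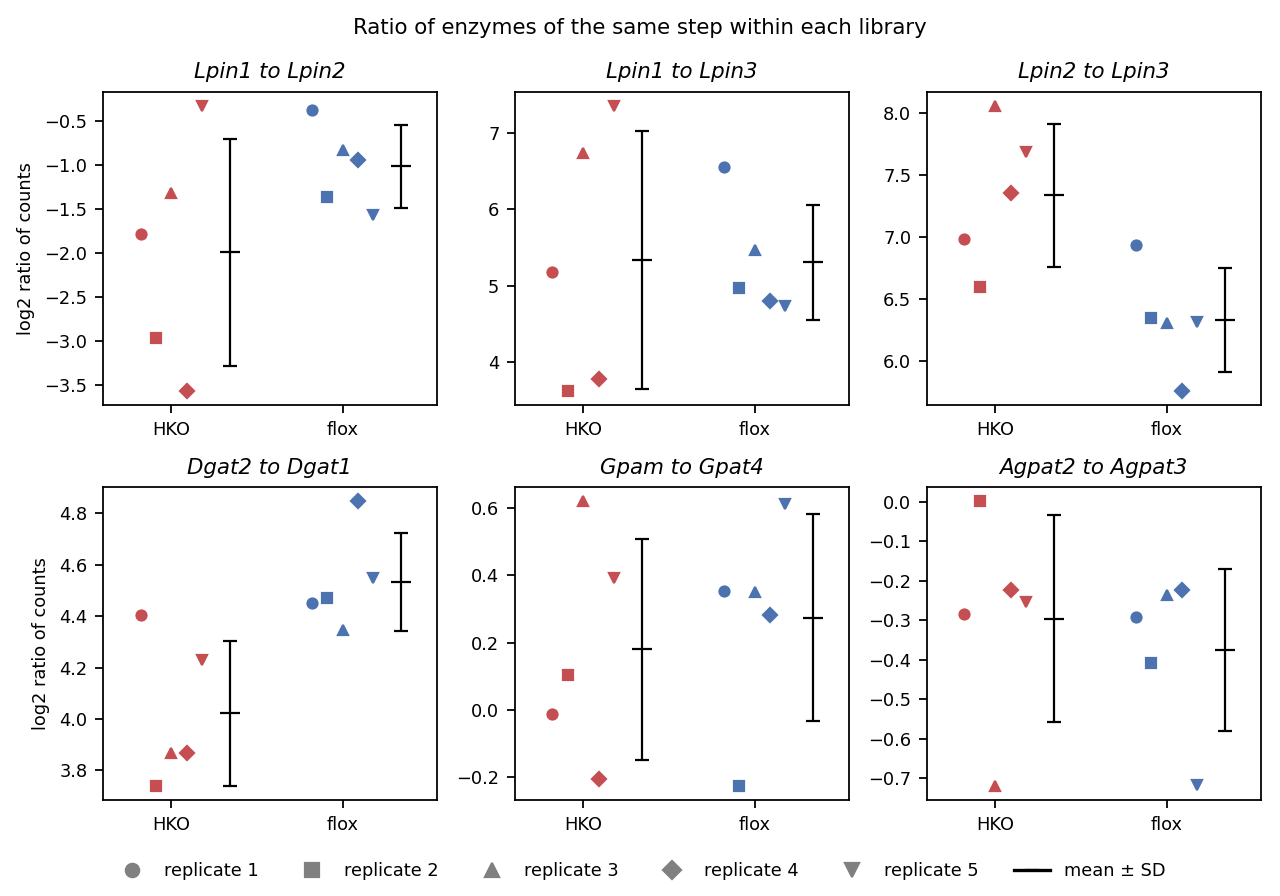
Log2 ratio of counts of 2 enzymes of the same step in each library (vertical axes, which do not start at 0), HKO left and flox right. Symbols are replicates 1 to 5 and black bars are the mean ± SD. The ratio of Dgat2 to Dgat1 is lower in HKO, at a mean of 4.02 against 4.53, and that of Lpin2 to Lpin3 is higher, at 7.33 against 6.33, with 1 library or more in the range of the other group.

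The levels of the 10 genes were also compared with each other across the 10 libraries, in 45 pairs. The strongest rank correlation was between Lpin2 and Dgat2, which ran in opposite directions (Spearman's rho -0.94, permutation p = 0.00026, adjusted p = 0.0117; Pearson's r -0.80, permutation p = 0.00604, adjusted p = 0.139). These are the 2 genes with an unadjusted p under 0.05, in opposite directions between the groups, and after each group was centred on its own mean r was -0.59. Without the 2 libraries with the most extreme Lpin2 level r was -0.61. Gpat4 and Pcyt1a tended to vary together (r 0.80, permutation p = 0.00617, adjusted p = 0.139). Their rho was 0.85 (permutation p = 0.0028, adjusted p = 0.0630). Neither of these correlations passed after adjustment over the 45 pairs. The r of Gpat4 and Pcyt1a was 0.85 after centring and 0.84 without the 2 libraries with the most extreme Gpat4 level. With 5 libraries in a group, no relation was tested within groups.

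Beside assembly, 7 of 8 tested genes of a list of fatty acid synthesis and related lipogenic genes fell. The list's median on the log2 scale was -1.15 (0.01 over all tested genes). The list was drawn up with this fall known. Fasn, fatty acid synthase, had 63.4, 99.7, 94.95, 54.4 and 89.6 CPM in HKO, against 235.9, 270.4, 164.4, 257.1 and 319.5 CPM in flox (log2 fold change -1.63 ± 0.21 (SE), edgeR adjusted p = 0.00217). Its groups did not overlap. Thrsp, a regulator of lipid synthesis, averaged 23.1 ± 10.1 CPM in HKO and 114.8 ± 53.2 CPM in flox, and Acaca, acetyl-CoA carboxylase, averaged 31.3 ± 2.84 CPM in HKO and 63.8 ± 18.9 CPM in flox. Me1, which supplies NADPH, was the exception at -0.14 (edgeR adjusted p = 0.834). The ratios of Gpam and of Dgat2 to Fasn were taken in each library after the values were seen. Fasn was known to fall, so they are given as a description, with no test. The log2 ratio of Gpam to Fasn ran from 0.70 to 1.90 in HKO and from -0.65 to -0.07 in flox, a difference of 1.48. The log2 ratio of Dgat2 to Fasn ran from 1.93 to 3.10 in HKO and from 0.57 to 1.73 in flox, a difference of 1.26. The ratio was higher in every HKO library than in every flox library for both genes.

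**Figure D4:**
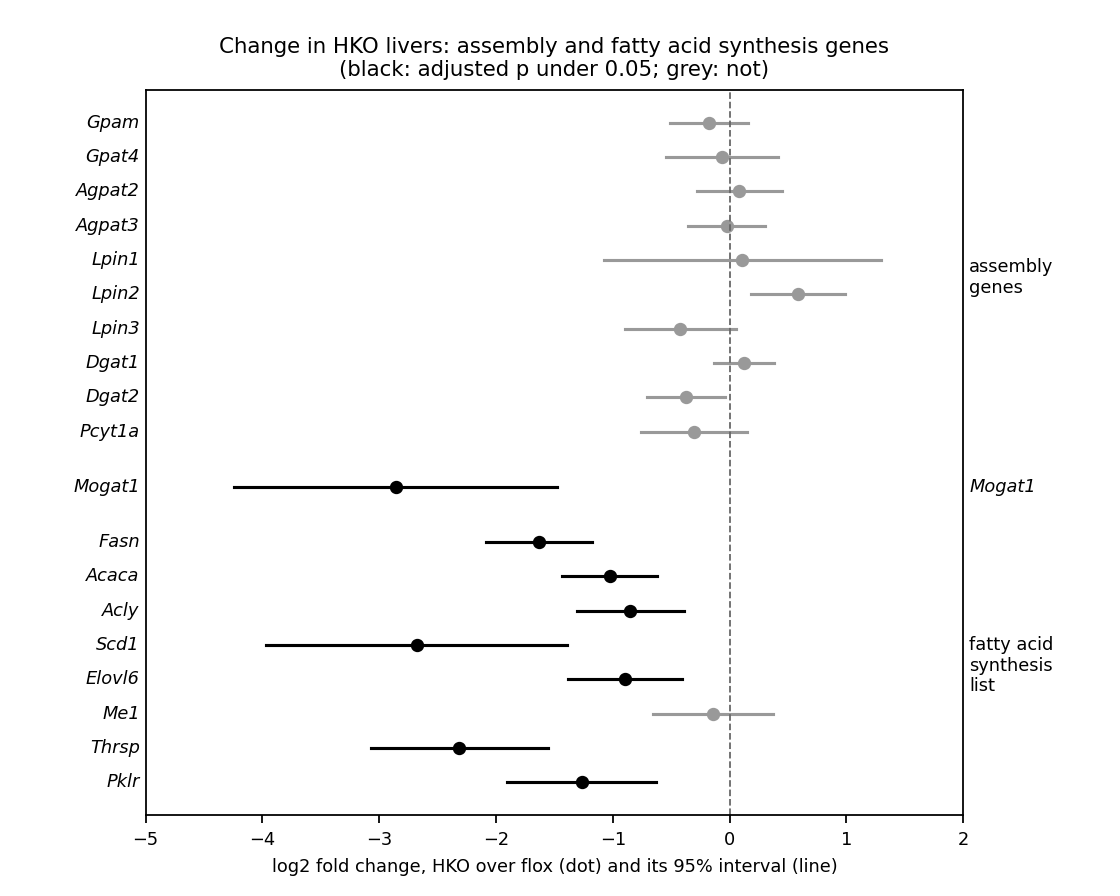
Log2 fold change of HKO over flox (points) with its 95% interval (lines) for the 10 assembly genes, Mogat1 and the fatty acid synthesis list. The 8 tested genes of that list include related lipogenic genes. Black marks an edgeR adjusted p under 0.05. All 10 assembly genes are grey and lie between -0.42 and 0.58, while 7 of the 8 genes of the list are black and lie at -0.85 or lower.

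The other genes of the pathway were read from lists of the same steps. Of 11 tested genes of other isoenzymes, 1 fell and 0 rose, with a median log2 fold change of -0.22. The one that fell was Mogat1, which makes diacylglycerol from monoacylglycerol and so bypasses the GPAT, AGPAT and lipin steps. It had 0.778, 1.45, 0.859, 0.771 and 1.54 CPM in HKO, against 8.44, 23.0, 4.20, 1.32 and 2.87 CPM in flox. Flox replicate 4 lay inside the HKO range and flox replicate 2 far above the other flox libraries. The log2 fold change was -2.86 ± 0.64 (SE, edgeR adjusted p = 0.0246), on 88 counts in HKO and 672 in flox. BC035947, which overlaps it on the opposite strand, had 6.84% of its count. The Mogat1 call was lost with robust dispersion (edgeR adjusted p = 0.0513) and without HKO replicates 1 or 4 (0.0627 and 0.0664). Without flox replicate 2 the log2 fold change was -1.95, and the edgeR adjusted p was 0.0456.

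None of the remaining isoenzymes passed. Plpp3, a lipid phosphate phosphatase of the cell surface, averaged 139.4 ± 38.5 CPM in HKO and 154.3 ± 9.83 CPM in flox (edgeR adjusted p = 0.754). Lclat1, an acyltransferase best known from cardiolipin remodelling, averaged 40.7 ± 11.2 CPM in HKO and 47.5 ± 10.2 CPM in flox (edgeR adjusted p = 0.646). Mogat2, another enzyme of the Mogat1 step, was too rare to be tested and averaged 0.0641 CPM in HKO and 0.482 CPM in flox, where 3 counts correspond to 0.156 to 0.195 CPM.

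None of the 8 genes that supply acyl-CoA or glycerol-3-phosphate passed the test (median log2 fold change -0.06, with 1 gene at an unadjusted p under 0.05). Acsl1, the main acyl-CoA synthetase of liver, averaged 1980 ± 443.3 CPM in HKO and 1340 ± 356.1 CPM in flox (log2 fold change 0.56 ± 0.22 (SE), edgeR adjusted p = 0.194). Aqp9, the channel through which glycerol enters hepatocytes, averaged 495.7 ± 63.7 CPM in HKO and 523.2 ± 60.7 CPM in flox (edgeR adjusted p = 0.847). DESeq2 also called 0 of these 8.

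None of 17 tested genes of the phospholipid branch passed in edgeR or in DESeq2 (median -0.05, with 0 at an unadjusted p under 0.05 in edgeR). Pcyt2, which does for ethanolamine what Pcyt1a does for choline, averaged 432.1 ± 63.8 CPM in HKO and 371.1 ± 82.1 CPM in flox (edgeR adjusted p = 0.587). Chpt1, which joins phosphocholine to diacylglycerol, averaged 320.4 ± 49.0 CPM in HKO and 307.5 ± 101.0 CPM in flox (edgeR adjusted p = 0.930). Of 9 regulators of these genes 0 passed in edgeR, with 1 at an unadjusted p under 0.05 and a median of -0.06, and DESeq2 called 1. That gene was Srebf1, which encodes SREBP1, at 90.1 ± 45.5 CPM in HKO and 213.5 ± 81.7 CPM in flox (log2 fold change -1.24 ± 0.34 (SE), edgeR adjusted p = 0.0590, DESeq2 adjusted p = 0.00644). Srebf1 was lower in HKO under all 17 alternatives, with a log2 fold change of -1.55 to -1.08. It passed in 7 of them, which include other edgeR fits. Mlxipl, which encodes ChREBP, averaged 439.2 ± 185.2 CPM in HKO and 416.3 ± 126.0 CPM in flox (edgeR adjusted p = 0.930).

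Other genes also spread widely between libraries, and their values stand beside those of Lpin1 with no test. Chka, choline kinase of the step before Pcyt1a, had 28.9, 34.2, 191.4, 32.6 and 253.7 CPM in HKO, against 97.2, 184.6, 77.0, 28.5 and 147.5 CPM in flox. Chka and Lpin1 were both highest in HKO replicates 3 and 5 within HKO, but in flox Chka was highest in replicate 2, where Lpin1 was lowest. HKO replicate 1 had the least Chka of its group and a middle Lpin1 level. The within-group SD of Chka exceeded that of 99.4% of tested genes. The clock gene Arntl, which encodes BMAL1, had 1.23, 1.64, 12.3, 3.28 and 22.7 CPM in HKO, against 12.0, 16.4, 6.28, 3.38 and 7.86 CPM in flox. Dbp, a clock output gene that cycles out of phase with Arntl, had 94.5, 102.7, 33.8, 42.0 and 2.65 CPM in HKO, against 25.9, 19.6, 44.6, 129.5 and 44.6 CPM in flox.

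HKO replicate 5, highest of all for Lpin1, Chka and Arntl, was lowest of all for Dbp. The genes did not match in every library. HKO replicate 4 had the least Lpin1 but more Arntl than HKO replicates 1 and 2, and flox replicate 2 had high Arntl with a low Lpin1 level for its group. Chka, Arntl and Dbp were chosen after their values were seen. Of 12 genes known to rise with fasting or glucocorticoids, 0 passed in edgeR or in DESeq2. An edgeR unadjusted p under 0.05 was reached by 2 of the 12, and by 16.9% of all tested genes. The list's median log2 fold change between groups was -0.09, which does not describe spread within groups. Of this list, Pdk4, Igfbp1 and Fgf21 had a within-group SD above that of 99.9%, 99.4% and 99.4% of tested genes. The other genes of the list spread less than Lpin1. Pdk4, Igfbp1 and Fgf21 were highest in flox replicate 5, at 289.3, 506.9 and 35.7 CPM, where Lpin1 had 149.2 CPM. Within HKO they were highest in replicate 5, as was Lpin1. The part of the clock and fasting genes in the spread of Lpin1 was not tested.

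**Figure D5:**
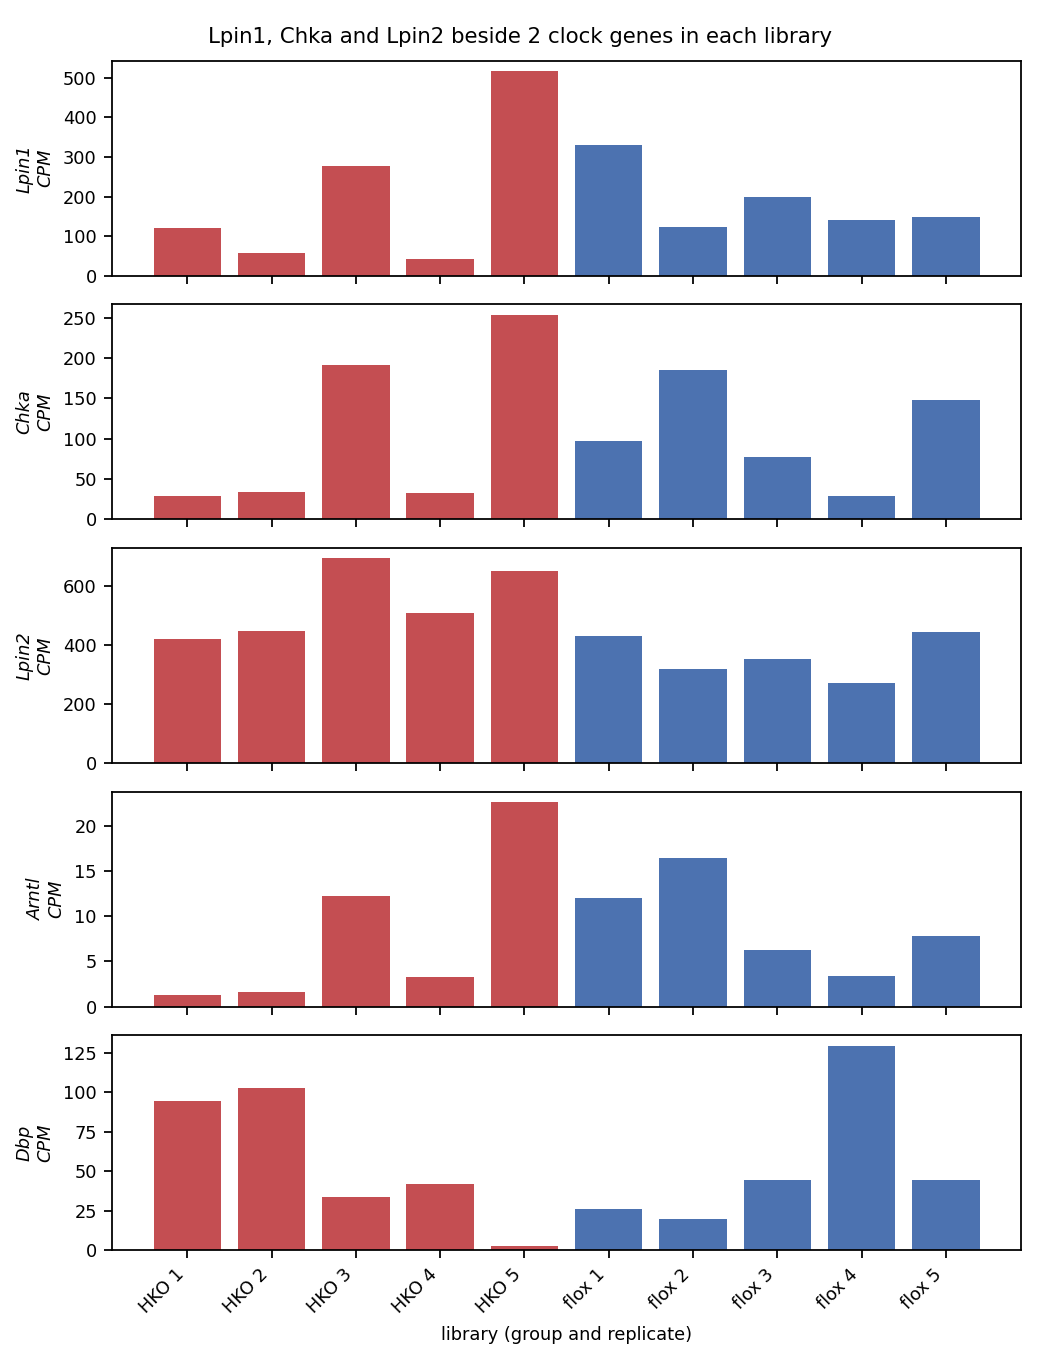
CPM (vertical axes, from 0) of Lpin1, Chka, Lpin2 and the clock genes Arntl and Dbp in each library, HKO replicates 1 to 5 and then flox replicates 1 to 5. HKO replicate 5 has the highest Lpin1, Chka and Arntl bars, at 517.3, 253.7 and 22.7 CPM, and the lowest Dbp bar, at 2.65 CPM.

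RefSeq promoter windows on GRCm38.p6 were found for 7 of the 10 genes, with 13 start sites in all. Gpat4, Dgat1 and Dgat2 had no entry. Shown are the 250 bases before a start of Lpin1, the gene with the widest spread, of Lpin2, the gene with the smallest p, and of Pcyt1a, the only one of the 7 with a sterol response element. Capitals mark the motif letters. The Lpin1 window lies at chr12:16610967-16611216 on the minus strand, before a start inside the gene. The Lpin2 window lies at chr17:71183282-71183531 and the Pcyt1a window at chr16:32430671-32430920, both on the plus strand and just before the first start of the gene.
Lpin1: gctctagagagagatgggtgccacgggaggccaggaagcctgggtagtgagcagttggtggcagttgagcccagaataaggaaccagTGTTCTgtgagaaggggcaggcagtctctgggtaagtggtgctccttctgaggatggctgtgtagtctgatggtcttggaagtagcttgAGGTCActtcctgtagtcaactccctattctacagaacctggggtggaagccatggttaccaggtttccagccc
Lpin2: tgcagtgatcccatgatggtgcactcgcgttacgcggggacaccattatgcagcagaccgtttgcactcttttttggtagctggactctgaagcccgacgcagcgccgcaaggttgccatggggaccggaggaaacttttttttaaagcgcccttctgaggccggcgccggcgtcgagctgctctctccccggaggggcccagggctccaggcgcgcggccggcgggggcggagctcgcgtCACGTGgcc
Pcyt1a: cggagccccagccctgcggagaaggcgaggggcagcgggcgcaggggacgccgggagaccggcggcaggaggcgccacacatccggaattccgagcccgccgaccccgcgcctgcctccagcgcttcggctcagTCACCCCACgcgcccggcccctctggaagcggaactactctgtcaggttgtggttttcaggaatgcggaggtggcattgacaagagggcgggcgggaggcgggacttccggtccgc

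Both strands of each window were searched for 5 motifs. The Lpin1 window holds TGTTCT, the reverse complement of the glucocorticoid receptor half-site AGAACA, from base -163 to base -158 before the start, and the nuclear receptor half-site AGGTCA from base -74 to base -69. These motifs occur in 16.1% and 14.0% of all 32851 windows of this length. The Lpin2 window holds the E-box CACGTG, bound by clock and other basic helix-loop-helix factors, from base -9 to base -4, as do 6.02% of all windows. The Pcyt1a window holds TCACCCCAC, a form of the sterol response element TCACNCCAC, from base -116 to base -108, as do 1.05% of all windows. Another, overlapping Pcyt1a window holds the same letters. Gpam had no match to that element, but 1 AGGTCA and 1 CCAAT, a motif in 33.8% of all windows. Windows not shown also held AGAACA in Lpin2 and Lpin3 and CCAAT in Lpin2. A match describes the letters only.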

How the data were processed

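Each library gave whole-number counts of reads per gene, deposited by the authors without division by library size. Total liver RNA went into libraries made with the VAHTS Universal V6 kit, as the labels' protocols state. The mm10 build and DESeq2 appear, with no role, per the submitters' processing notes. Which aligner, counter and annotation were used, and whether strand was, is not given here. Of the table's identifiers 52073 were in GENCODE M21 (GRCm38), 2.83% of them with the same start and end, and 0 of the 10 genes, so the table's coordinates are not printed. Symbols and lengths came from the table.

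Differences between HKO and flox came from quasi-likelihood F-tests in edgeR 4.0.16 (R 4.3.3), two-sided, with TMM scaling. filterByExpr left 14068 genes, over all of which p was adjusted by Benjamini-Hochberg, at a threshold of 0.05. The SE was derived from the fold change and its F statistic, and 95% intervals from that SE. Alternatives were DESeq2 1.42.0, other scalings, filters and dispersions, a replicate block, and leaving out each library. Ratios used counts plus 0.5, and correlations used log2 CPM with a prior count of 2 and 100000 permutations. The gene test was run on simulated counts, where 56% of the genes changed 2-fold passed. The ratio test was checked on made-up values only. A BLAST 2.17.0 search of GENCODE M21 transcripts found 0 near-identical copies of the 10 genes. Libraries of a group differed beyond sampling noise (chi-square per degree of freedom of 24.6 or more).

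The members and lists were chosen with earlier results of these data known. The genes named were the 10, Acss2, every pathway list gene past the threshold with the 2 most abundant others per list, and up to 3 called genes of each context list. Me1, Arntl, Dbp, Chka, Pdk4, Igfbp1, Fgf21, Ddx3y, Xist and Mogat2 fall outside this rule and were chosen after their values were seen. The ratios to Fasn were also chosen in this way.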

Additional observations from a re-analysis of the deposited data

Results flagged for a closer look

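Of 34 sets of 5 values looked at (the 10 genes, Mogat1 and the 6 ratios in each group), 1 held a library far from its group. Dgat1 stood at 28.9 CPM in HKO replicate 2 and at 24.4 to 25.5 CPM in the other HKO libraries, a gap of 0.738 of the range where Dixon's limit for 5 values is 0.71. Chance gives about 1 such value in 20 sets. The difference in CPM is small, and Dgat1 did not pass between HKO and flox with this library (edgeR adjusted p = 0.673) or without it (0.840).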

How the results depend on the processing

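Over 17 alternatives the count of the 10 genes called stayed at 0 in 16 and was 1 in DESeq2. The count of all genes called, 561, was 1112 in DESeq2 and ran from 289 to 673 when 1 library was left out, with 335, 289, 354 and 361 without HKO replicates 1, 4 and 5 and flox replicate 5. The pathway lists, with 1 call, gave 2 in DESeq2, with library totals alone, without a filter and with the replicate block, 0 with robust dispersion, and 0 to 2 with 1 library left out. With library totals alone the median of all genes was -0.10, against 0.01 with TMM scaling, which turned Agpat2 to -0.016, Chpt1 to -0.025 and Mlxipl to -0.039. Leaving out 1 library gave ranges that crossed 0 for Gpat4 (-0.24 to 0.12), Agpat3 (-0.093 to 0.085), Lpin1 (-0.59 to 0.41), Mlxipl (-0.12 to 0.28) and Chpt1 (-0.063 to 0.24). For the ratios these ranges were -1.39 to -0.58 for Lpin1 to Lpin2, -0.48 to 0.45 for Lpin1 to Lpin3, 0.82 to 1.19 for Lpin2 to Lpin3, -0.61 to -0.43 for Dgat2 to Dgat1, -0.22 to 0.0021 for Gpam to Gpat4 and -0.0062 to 0.19 for Agpat2 to Agpat3. Adding 5 counts turned Lpin1 to Lpin3 to -0.0084. The causes were not tested.

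With the replicate number as a block Lpin1 was -0.45, and 448 genes were called. The 5 same-numbered pairs had correlations of -0.12 to 0.24 and 1 of 5 HKO libraries correlated best with its own number, so the numbers were not treated as pairs. Paired by number, a sign-flip test cannot go below 0.0625 before adjustment, so no ratio could pass it. The differences of 1.004 for Lpin2 to Lpin3 and -0.51 for Dgat2 to Dgat1 both stood at that floor. Their adjusted p was 0.188 (sign-flip test), from which no conclusion is drawn.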
